A study of Danio rerio with 4 samples.

Results

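The 10 genes described here encode repressors of the hey and her families, many of them Notch targets in zebrafish, and a Notch feedback protein. Whether each of the 10 responds to Notch in these hearts was not tested. They are the hey genes hey1, hey2 and heyl, the her genes her4.1, her6, her9, her12 and her15.1, and the paired genes nrarpa and nrarpb. They were chosen by name from 14434 genes named on the array, with earlier results of these data known. Every probe that the platform assigns to one of these symbols or to an older alias was taken. Of the 10 genes, 8 had a probe and 2, her4.1 and her15.1, had none under their own symbol or an alias. The 8 genes carried 15 probes, of which 14 passed a filter on low signal and were tested. All 14 tested probes passed this filter on all 4 arrays, so no gene was tested only because one group was bright.

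Notch receptors are cleaved when a Delta or Jagged ligand on a neighbouring cell binds them, and the released intracellular part joins the DNA-binding protein Rbpj and Mastermind to switch on target genes. Prominent among these targets are members of the hes, her and hey families, whose products are basic helix-loop-helix repressors. Another is nrarp, which encodes an ankyrin repeat protein that limits the same signal. In the vertebrate heart, Notch signalling in the endocardium, the inner lining, takes part in the formation of valves and of trabeculae, and hey genes are used as readouts of it. Some her genes are known mainly from neural progenitors and from the segmentation of the trunk mesoderm.

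Hearts were dissected by hand from 72 hpf (hours post fertilization) embryos that were either wild type (WT) or mutant for ccm2, carrying the m201 allele. Ccm2 is a scaffold protein that acts in the endothelium and endocardium and is known from cerebral cavernous malformations. WT and mutant hearts were pooled, with 2 pools per group, each pool was hybridised to its own Cy3 array, and the 4 arrays lay on a single slide. The labels do not say whether the pools came from separate clutches or how many hearts each held, so p-values measure the spread between these samples, which may be technical. A free-text field of the mutant samples names Bmp2b overexpression, which is not in their titles, sources or genotypes. The groups follow the titles, and whether Bmp2b was supplied is not settled by the sources used here. Levels below are log2 processed signals relative to the 75th percentile of the same array, so that 0 is that percentile, and differences are mutant minus WT. The 7 tested cardiomyocyte markers and the 7 tested endothelial markers were well above background on every array. The transcript of ccm2 itself was at -2.04 and -1.70 in WT 1 and WT 2 and at -2.33 and -2.57 in mutant 1 and mutant 2, which the test did not separate (limma adjusted p = 0.167). Where its probes lie relative to the m201 lesion is not given in the sources used here, so this value does not check the labels.

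Among the 8 measured genes, hey2 fell in ccm2 mutant hearts, her12 rose, and 6 did not pass the test. hey2 was 4.86-fold lower (log2 difference -2.28 ± 0.17, SE, n = 2 arrays per group) and her12 was 3.53-fold higher (1.82 ± 0.25, SE), a dim probe whose log2 difference was 0.48 from raw median signal processed with normexp. The other hey genes and her6 lay below WT on both mutant arrays by smaller amounts, whereas her9, nrarpa and nrarpb lay within 0.47 of WT on the log2 scale. The 2 calls of 8 (25.0%) stand beside 17.1% of the 11526 genes tested across the array, so the share called was near that of all genes. By direction, the 1 fall of 8 stands beside 9.03% of all tested genes and the 1 rise beside 8.10%. The median difference of the 8 genes was -0.25, against -0.04 over all tested genes, with 4 of the 8 below 0. In pooled hearts, fewer cells of a type and less RNA per cell cannot be told apart.

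**Figure D1:**
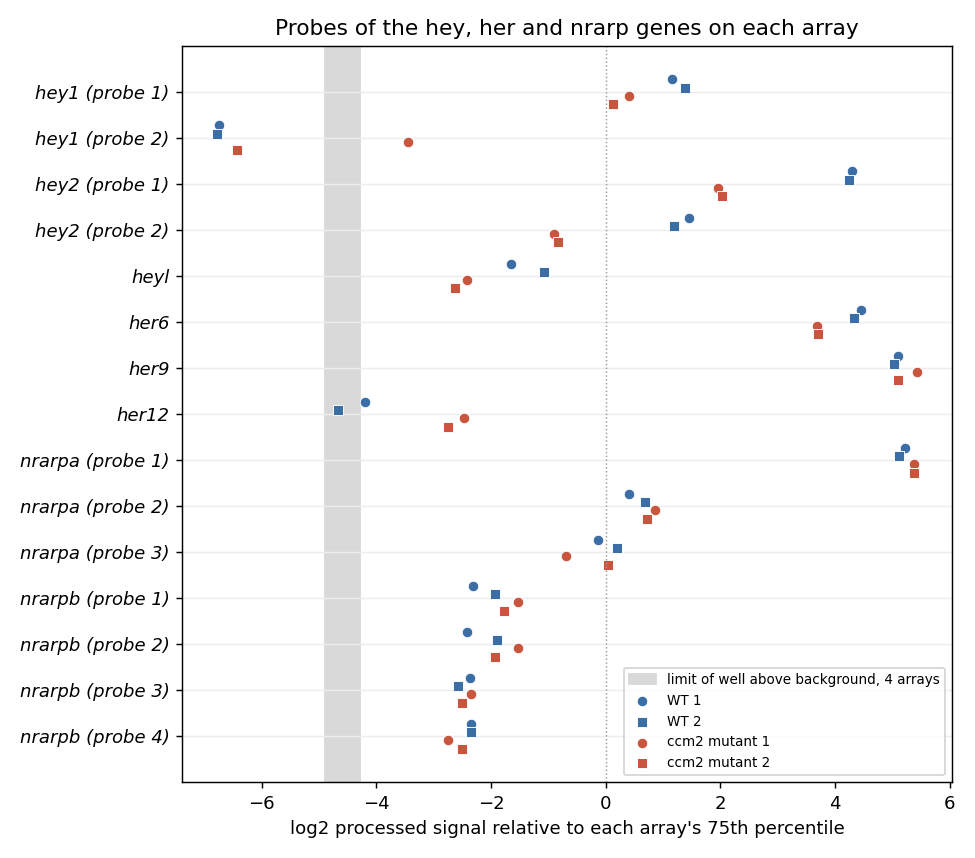
Log2 processed signal of each of the 15 probes on each array, relative to the array's 75th percentile (x axis); blue symbols are the WT arrays, red the mutant arrays, circles sample 1 and squares sample 2, and the grey band spans the signal that counts as well above background on the 4 arrays. Both hey2 probes and the her12 probe show the groups well apart, and the second hey1 probe is above the band on mutant 1 only.

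The hey genes encode Hairy-related repressors that bind DNA as dimers. hey2, known in zebrafish as gridlock for its part in the formation of the aorta, is also expressed in the heart. Its brighter probe gave 4.3 in WT 1, 4.25 in WT 2, 1.96 in mutant 1 and 2.03 in mutant 2. The samples of each group lay close together, and even the nearest WT and mutant arrays were more than 2 log2 units apart. The limma fit across all tested probes called the fall, with a log2 difference of -2.28 (95% confidence interval -2.75 to -1.81, adjusted p = 0.00957). The second hey2 probe, a different sequence on the array, gave 1.45 and 1.20 in WT and -0.90 and -0.83 in mutants. Its difference was -2.19 (SE 0.19, limma adjusted p = 0.0114), so both probes of the gene were called and their estimates differed by less than either standard error. Of all tested probes 8.40% were called lower. The deposited raw median signal of the brighter probe, which had no background subtracted, was 3143 and 3247 in WT against 764 and 877 in mutants. With 1 array left out the difference stayed between -2.32 and -2.24, but the call was lost in each of these fits. They leave 1 array in a group, and calls were lost across the whole array as well.

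hey1 is known in the mouse from endothelium and atrial muscle. Its detected probe was at 1.16 and 1.39 in WT and at 0.42 and 0.14 in mutants. The groups did not overlap, which holds for 67.8% of all tested genes, 35.2% with mutants lower and 32.6% with mutants higher. The log2 difference of -1.0 ± 0.21 (SE, 95% confidence interval -1.58 to -0.41) just missed the threshold (limma adjusted p = 0.0535). The second hey1 probe was dim, at -6.75 and -6.77 in WT, -3.45 in mutant 1 and -6.43 in mutant 2. Only mutant 1 was well above background there. This probe did not pass the filter on low signal, so it was not tested and gives no second estimate. heyl, the remaining hey gene, had 1 probe, at -1.65 and -1.08 in WT and -2.41 and -2.62 in mutants. Both mutant arrays lay below both WT arrays, and the difference of -1.15 ± 0.27 (SE, 95% confidence interval -1.90 to -0.39) did not pass (limma adjusted p = 0.0667). On raw median signal with normexp background correction, an offset of 50 and quantile normalization, the heyl difference was -0.54. All 3 hey genes thus had negative estimates whose unadjusted intervals stayed below 0, as 35.7% of all tested genes had an unadjusted p under 0.05 in either direction. hey2 was the one that passed after adjustment over all probes.

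The her genes are the zebrafish relatives of the mammalian Hes genes. her6, related to Hes1, was at 4.46 and 4.33 in WT and at 3.69 and 3.70 in mutants. The difference of -0.70 ± 0.17 (SE, 95% confidence interval -1.18 to -0.22) did not pass (limma adjusted p = 0.0721). her9, also close to Hes1 in sequence, was at 5.10 and 5.03 in WT and at 5.43 and 5.10 in mutants. Mutant 2 lay level with WT 1, and the difference of 0.20 ± 0.20 (SE, 95% confidence interval -0.37 to 0.77) did not pass (limma adjusted p = 0.559). Both genes were bright on all arrays. With the same estimate, her6 passed when limma's variance prior followed signal (adjusted p = 0.0170) and under the stricter filter on low signal (adjusted p = 0.0283). hey1 also passed under both settings. Also with the same estimate, her6 did not pass in limma with no filter (adjusted p = 0.182) or with the sample number as a block (adjusted p = 0.136). Nor did it pass with signals raised to the 40th percentile (limma adjusted p = 0.0654).

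her12, a gene of the Hes5 type known in zebrafish from the segmentation of the trunk, moved the other way. It was at -4.19 in WT 1, -4.66 in WT 2, -2.47 in mutant 1 and -2.75 in mutant 2. Both WT values lay just above the limit for being well above background, which was -4.29 on WT 1 and -4.71 on WT 2, and both mutant arrays were clearly above it. The difference of 1.82 ± 0.25 (SE, 95% confidence interval 1.11 to 2.53) passed (limma adjusted p = 0.0253). Its raw median signals were 32 and 29 in WT and 57 and 55 in mutants, where the median of all features on an array was 34.5 to 35. The size of the rise depended on the processing. On raw median signal with normexp, an added offset of 50 and quantile normalization it was 0.48, still called (limma adjusted p = 0.0312). Quantile normalization alone, on the processed signal, gave 1.96. The other steps were not run separately, so the part of each was not tested. The difference was 2.06 without WT 1, 1.58 without WT 2, 1.68 without mutant 1 and 1.96 without mutant 2. The call was lost whichever array was left out, in fits that lost calls across the whole array as well.

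**Figure D2:**
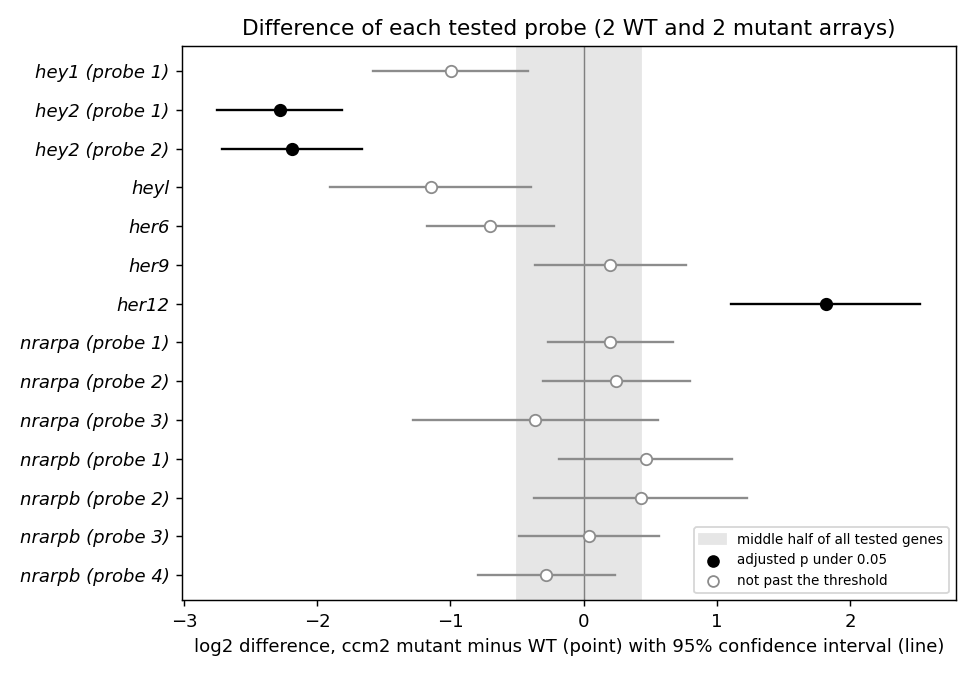
Log2 difference, mutant minus WT, of each of the 14 tested probes (points) with its 95% confidence interval from the limma fit (lines); filled points passed an adjusted p of 0.05 and the grey band spans the lower to the upper quartile of all tested genes. Both hey2 probes lie near -2.2 and her12 at 1.82, while the 7 nrarp probes spread around 0.

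nrarpa and nrarpb encode small ankyrin repeat proteins that are induced by Notch and act against its intracellular part. They were measured by 7 tested probes, none of which passed. The brightest nrarpa probe was at 5.22 and 5.12 in WT and at 5.37 and 5.38 in mutants. Its difference of 0.20 ± 0.17 (SE, 95% confidence interval -0.27 to 0.67; limma adjusted p = 0.476) leaves room for a change of less than 2-fold in either direction. The second nrarpa probe gave 0.25 ± 0.20 (SE) and the third -0.36 ± 0.33 (SE), the latter with overlapping groups. The brightest nrarpb probe was dim, at -2.32 and -1.92 in WT and at -1.53 and -1.78 in mutants. Its difference was 0.47 ± 0.23 (SE, 95% confidence interval -0.19 to 1.12; limma adjusted p = 0.257). The other nrarpb probes gave 0.43, 0.04 and -0.28, so the probes of each nrarp gene disagreed in sign, with 5 of 7 above 0 and 2 below. Over the 14 tested probes of all these genes, 11 had groups that did not overlap, against 63.5% of all tested probes (32.9% of all with mutants lower), and 3 were called, against 16.0%.

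**Figure D3:**
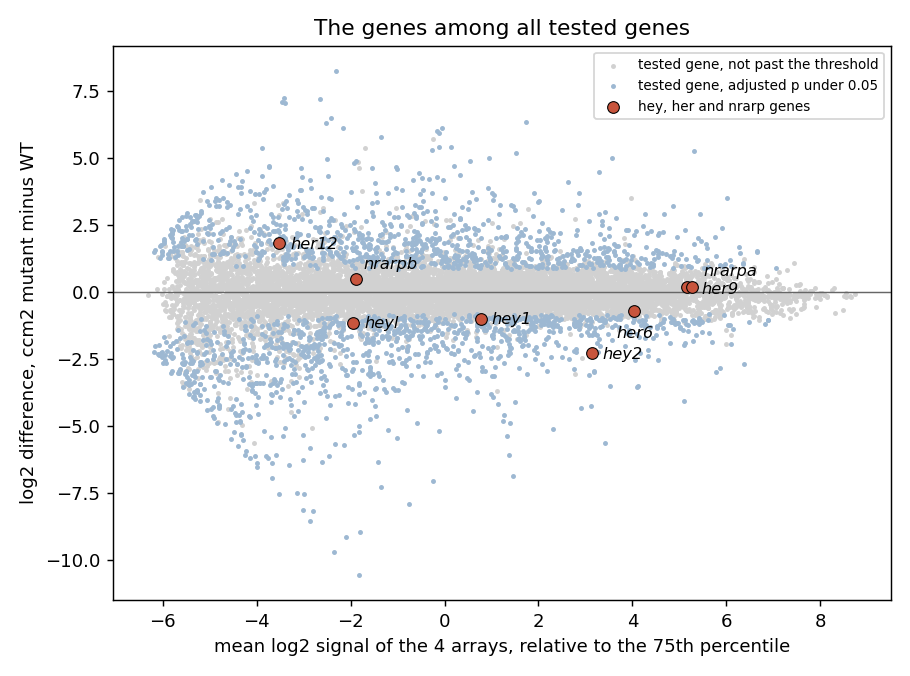
Mean log2 signal over the 4 arrays (x axis) against the log2 difference, mutant minus WT (y axis), for the 11526 tested genes, with the 8 hey, her and nrarp genes in red and genes past an adjusted p of 0.05 in blue. hey2 and her12 lie among the blue genes, and the others lie in or at the edge of the grey cloud.

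The 2 genes without a probe have close copies on the array. her15.2 lies next to her15.1 in the RefSeq gene order of assembly GRCz12tu, and her4.5 lies in a row of her4 copies that begins beside her12, with her4.2, her4.1, her4.3 and her4.4 between them. Copies of this kind can share sequence, so their probes may also bind the RNA of the genes without a probe, and the values are uncertain in that respect. her15.2, of the Hes5 type, was at 3.84 and 4.15 in WT and at 2.82 and 2.64 in mutants. It was called lower, with a difference of -1.27 (SE 0.21, limma adjusted p = 0.0342), and was picked out for its place beside her15.1 after its value was seen. her4.5 was not well above background on either WT array, at -6.22 and -5.29, and was so on 1 of the 2 mutant arrays, at -5.17 and -4.82. Its difference did not pass (limma adjusted p = 0.261).

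The wider family of her and hes genes, with helt and the related bhlhe genes, held 20 other listed genes, of which 16 were on the array and 7 passed the filter on low signal. Of these 7, 1 rose (helt), 3 fell (her8a, bhlhe41 and her15.2) and 3 did not pass. That is a share of 57.1% called against 17.1% of all tested genes (8.10% higher and 9.03% lower). The share includes helt, which had to differ for the reason given below, and leaves out the 9 genes on the array that were not tested. The median difference of the 7 was -0.37 against -0.04 over all genes. helt, which encodes a Hey-like repressor known from the mouse midbrain, was at -5.95 and -5.40 in WT, below the limit of background, and at 0.56 and 0.65 in mutants. It was at least 34.5-fold higher in mutants (limma adjusted p = 0.00720). It passed the filter through the mutant arrays, where it is high, so it had to differ, and its p rests on WT values below background. her8a, expressed in zebrafish neural tissue, was at 1.69 and 1.97 in WT and at -0.90 and -0.24 in mutants, a difference of -2.40 (SE 0.30, limma adjusted p = 0.0212). Its second probe was below background on all arrays. bhlhe41, a repressor of the circadian and hypoxia responses, was at 1.47 and 1.63 in WT and at -0.02 and -0.30 in mutants. Its difference was -1.71 (SE 0.20, limma adjusted p = 0.0182), with -1.78 at its second probe, also called. Of the 9 listed genes that were on the array but did not pass the filter, 7 were not well above background on any array.

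Upstream of these repressors, the list of ligands, receptors and processing machinery held 41 genes, of which 29 were tested. In it 1 rose, 2 fell and 26 did not pass, a share of 10.3% called against 17.1% of all tested genes, with a median difference of -0.08. The Delta ligand gene dlc was at -0.06 and -0.20 in WT and at -1.88 and -2.02 in mutants, and fell by 1.82 (SE 0.18, limma adjusted p = 0.0140). Its second detected probe gave -0.62 and was not called. The Jagged ligand gene jag1a was at -0.42 and -0.27 in WT and at -1.69 and -1.94 in mutants, and fell by 1.46 (SE 0.20, limma adjusted p = 0.0233), with -1.45 at its second probe, also called. lfng, whose product adds sugars to Notch receptors, was at 5.95 and 5.87 in WT and at 7.43 and 7.35 in mutants (limma adjusted p = 0.0178). For the DNA-binding partners rbpja and rbpjb the differences were -0.27 ± 0.20 (SE) and -0.42 ± 0.18 (SE), with adjusted p of 0.422 and 0.197.

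**Figure D4:**
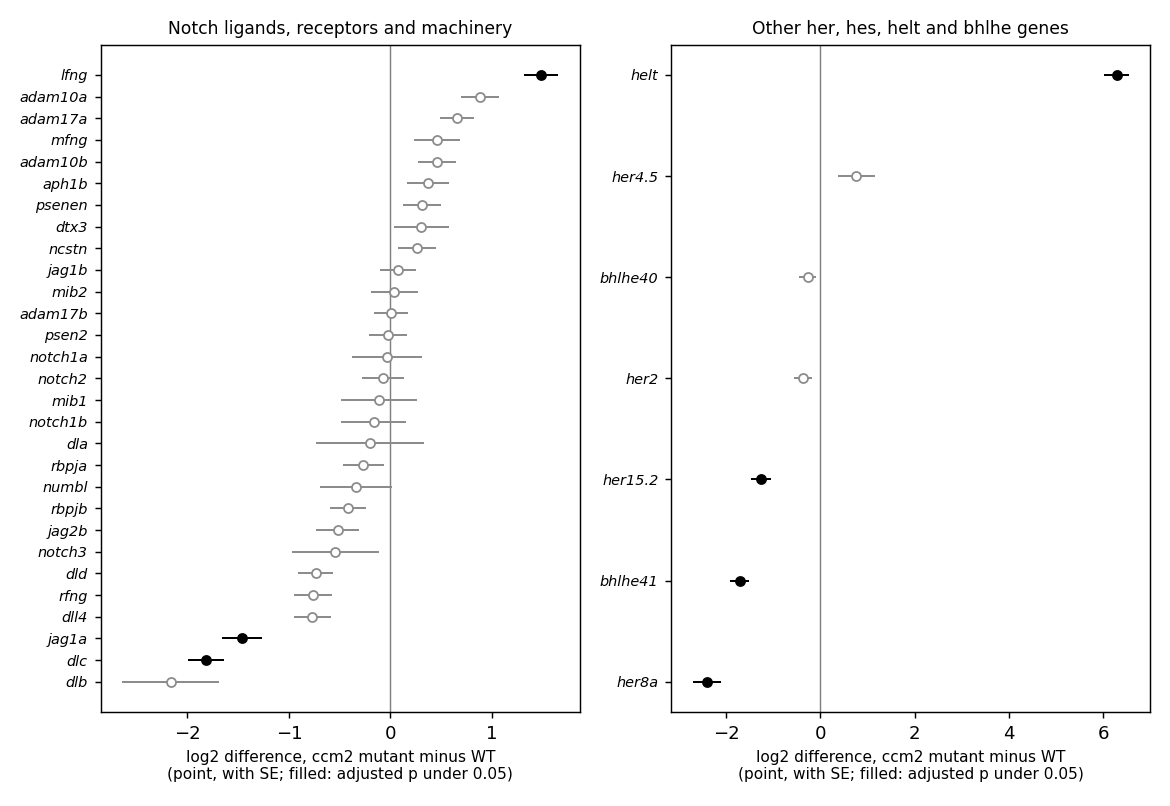
Log2 difference, mutant minus WT, with its standard error, for the 29 tested genes of the Notch ligands, receptors and machinery (left) and the 7 tested genes of the wider her, hes, helt and bhlhe families (right); filled points passed an adjusted p of 0.05. lfng lies at 1.48 and dlc at -1.82, and the point of helt at 6.28 is a fitted value against WT arrays below background, for which the text gives a lower bound.

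Among 24 tested genes for Groucho co-repressors and for endocardial and valve factors linked to Notch or Hey proteins, 2 rose and 2 fell, close to the 17.1% of all genes. bmp2b, which encodes a BMP ligand and is the gene that the sample description names as overexpressed, was at -0.80 and -1.05 in WT and at 0.70 and 0.48 in mutants. It rose by 1.52 ± 0.20 (SE, limma adjusted p = 0.0235). flt4, a VEGF receptor gene of veins and lymphatics, rose by 1.28 ± 0.19 (SE, limma adjusted p = 0.0284). nrg1, the neuregulin ligand gene, was at -3.30 and -2.51 in WT and was not well above background in mutants. There it was at least 3.63-fold lower (limma adjusted p = 0.0201). It passed the filter through the WT arrays, where it is high, so it had to differ. Its p rests on mutant values below background. dusp5, a MAP kinase phosphatase gene, fell by 1.79 (SE 0.17, limma adjusted p = 0.0127).

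The genes whose values over the 4 arrays most resembled those of hey2, after each gene was centred on its own mean, were tmem45a, emx3 and tmem119b. Their Euclidean distances from hey2 were 0.077, 0.098 and 0.12 log2 units. emx3, a forebrain homeobox gene, was at -1.81 and -1.81 in WT and at -4.23 and -4.13 in mutants. With 4 arrays, 159 of the 11526 tested genes lay closer than 0.5 to hey2, so this likeness singles out few features of the gene.

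Markers of several cell types differed between the groups as well. The counts below stand beside 17.1% of all tested genes called, 8.10% higher and 9.03% lower. Summed signals are given in multiples of the array's 75th percentile. Of 7 tested endothelial and endocardial markers 2 rose (tek and egfl7) and 0 fell. The summed signal of the 7 was 181 and 179 in WT against 331 and 272 in mutants. Most of this increase lies in tek and egfl7 themselves, so the sum adds little to the 2 calls. The list did not move as one: nfatc1, an endocardial transcription factor gene, had a difference of -0.94 (limma adjusted p = 0.0654) and erg one of -0.24, neither called. Of 7 cardiomyocyte markers 0 were called (limma), with sums of 846 and 774 in WT and 938 and 654 in mutants, and 1 of the 7 had an unadjusted p under 0.05. Of 4 smooth muscle markers 1 fell, with sums of 94.5 and 93.0 in WT and 73.6 and 66.4 in mutants. Of 12 tested nervous system and retina markers 8 fell and 3 rose. Among the falls, crx and elavl3 were not well above background on either mutant array and passed the filter through the WT arrays. The summed signal of all 13 listed markers with a probe, 23.9 and 33.1 in WT and 42.1 and 37.7 in mutants, went against the count of falls. This sum leans on tubb5, the brightest of the 12 on every array, which makes up most of both mutant sums. tubb5 was among the 3 rises, with a difference of 1.03 (SE 0.18, limma adjusted p = 0.0382). The higher sum therefore does not show a rise across the list. Red blood cell markers fell in 4 of 5 cases and rose in 1. Their sums were 410 and 356 in WT and 69.5 and 53.1 in mutants. gata1a, among the falls, was not well above background on either mutant array and passed the filter through the WT arrays. Of the leukocyte markers 5 of 5 rose, from sums of 4.41 and 4.04 to 18.7 and 19.8. Both cartilage markers tested fell. The sums over all 4 listed cartilage markers with a probe, 2 of them not tested, were 15.6 and 16.3 in WT and 0.58 and 0.54 in mutants. Of 4 epicardial markers 1 rose, aldh1a2, which makes up most of the sums of 39.5 and 39.4 in WT and 91.0 and 90.4 in mutants. The other 3 lay below 0 without a call, tcf21 at -1.13. Skeletal muscle markers fell in 1 of 5, and 0 of 3 skin markers were called. The part of these cell types in the differences of hey2, her12, her8a, her15.2 and helt was not tested.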

How the data were processed

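Hearts of 72 hpf embryos gave total RNA (integrity number above 8, per the labels' protocols), which was labelled with Cy3 and hybridised to Agilent arrays. The main values are the authors' processed intensity, made with Agilent Feature Extraction (version 10.5.1.1 in the headers). According to the deposited headers this intensity had its background subtracted and was detrended, dim spots hold surrogate values, and arrays were not scaled to each other. The series matrix gave identical intensity for the 43803 features. Raw median intensity, from another deposited table, was used for the normexp alternative. Symbols came from the platform annotation, updated through RefSeq: 21061 features had 1 symbol and 22742 had none. Across arrays, 54.0% to 55.9% of features were well above background and none was saturated; the header gives only their number, so the brightest features up to it were taken as such. A lower bound on a fold sets the bright group's mean against that limit.

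Each array's 75th percentile was subtracted on the log2 scale, repeated spots were averaged, and the 26825 probes above the 40th percentile on at least 2 arrays were fitted with limma 3.58.1 in R 4.3.3 (lmFit, eBayes, two-sided, Benjamini-Hochberg over all probes, threshold 0.05). A gene was counted through its brightest tested probe. The fit was tested on simulated data. The genes, lists and tests were chosen with earlier results of these data known. Named genes are all members, the largest called changes of each list (up to 2 each way), ccm2 and the 3 genes nearest to hey2; rbpja, rbpjb, her15.2, her4.5 and the markers named were picked after their values were seen. Alternatives changed the scaling, background correction, filter, variance trend, block, probe rule and threshold, or left out 1 array. Precision is limited by having 2 arrays a group. Figures used matplotlib 3.10.9.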

Additional observations from a re-analysis of the deposited data

How the results depend on the processing

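Over the alternatives, the differences of hey2, hey1, heyl, her6, her9, her12, both brightest nrarp probes, the second nrarpa probe and nrarpb probes 2 and 4 kept their sign. With 1 array left out, the third nrarpa probe ranged from -0.73 to 0.0069 (positive without mutant 1), and the third nrarpb probe from -0.066 to 0.15 (-0.066 without WT 2, -0.035 without mutant 1). No scaling turned a sign, although the median difference over the whole array, -0.04, became 0.11 with median scaling and 0.17 without scaling, and the calls, 934 higher and 1041 lower, became 1139 and 817, and 1295 and 770, respectively. Leaving out 1 array ended both calls among the 8 genes, leaving 0 higher and 0 lower in each case, and took all genes called from 1975 to between 0 and 567; limma still gave 4110 genes an unadjusted p under 0.05 with all arrays and 2843 to 3782 with 1 left out. It took the Notch pathway list from 3 calls to 0, the wider family from 4 to between 0 and 1 and the co-repressor list from 4 to between 0 and 1. Genes called numbered 1118 with no filter, 3014 with a variance trend and 3227 at an adjusted p under 0.1. Members called lower numbered 2 with signals raised to the 40th percentile (hey1 added), 3 with normexp on raw signal and 3 under the stricter filter above the 60th percentile on all arrays (hey1 and her6 added), and 4 with a variance trend and 4 at an adjusted p under 0.1 (heyl added as well). The stricter filter did not test her12, heyl or nrarpb, which left 0 members higher. The Notch list had 8 calls with normexp, 8 under the stricter filter, 8 with the trend and 9 at the looser threshold; the co-repressor list had 7, 8 and 7 with normexp, the trend and the looser threshold. The sample number as a replicate block gave 874 genes called, 2 in the wider family and 1 in the co-repressor list, and changed no call among the members; samples with the same number share only a number, and the deviations of samples with the same number correlated at 0.071 across probes. Dim signal limits her12, heyl, nrarpb and her4.5. With normexp, an offset of 50 and quantile normalization on raw signal, her12 gave 0.48, heyl -0.54 and the brightest nrarpb probe 0.26. Quantile normalization alone, on the processed signal, gave 1.96, -1.08 and 0.52 for the same probes. The cause was not tested, and her4.5 was not recomputed.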
